A study of Arabidopsis thaliana with 36 samples.

Results

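The Aux/IAA proteins are the short-lived repressors of auxin-responsive transcription in plants. The 10 genes described here are IAA1 (AT4G14560), IAA2 (AT3G23030), IAA3 (AT1G04240), IAA5 (AT1G15580), IAA12 (AT1G04550), IAA14 (AT4G14550), IAA17 (AT1G04250), IAA19 (AT3G15540), IAA28 (AT5G25890) and IAA29 (AT4G32280) of Arabidopsis thaliana. They were picked by locus identifier, with earlier results of these data known. All 10 were found among the 32833 identifiers of each count table. The list of the family used here holds 29 genes, and the other 19 are given as context. Roots of 7-day-old Col-0 seedlings had grown on mesh over 1 mM KNO3. At 2 h after dawn they went to a fresh plate with 10 mM or with 1 mM KNO3. Roots were frozen 15, 45, 90 and 180 min later, which gives 8 groups. At 0 min the mesh was only picked up and returned to its 1 mM plate. All groups were wild type, each replicate pooled 2 plates per time point, and potassium differed with nitrate between the media as far as the labels describe them. Each of the 9 groups has 4 libraries, 1 from each of 4 batches.

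In the nuclear auxin pathway, Aux/IAA proteins bind auxin response factors (ARFs) and recruit TOPLESS (TPL) corepressors, which keeps ARF target genes low. Auxin joins an Aux/IAA protein to a TIR1/AFB receptor, an F-box protein, and the repressor is then ubiquitinated and degraded. Many Aux/IAA genes are themselves early auxin-induced targets of the ARFs, so the pathway restrains itself. In roots the family is known from gain-of-function mutants: IAA14 (SOLITARY-ROOT) and IAA28 for lateral root formation, IAA3 (SHORT HYPOCOTYL 2) for meristem size, IAA17 (AUXIN RESISTANT 3) for gravitropism and root hairs, and IAA12 (BODENLOS) for the embryonic root. By its title, the series concerns the short-term response to nitrogen supply and the start of lateral roots.

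The promoter windows of the 4 genes on which the results below turn are printed to compare their auxin response elements. IAA2, IAA5 and IAA12 passed the test against 0 min, and IAA19 had the smallest p between the KNO3 levels. Capitals mark the elements TGTCTC and TGTCGG, which ARFs can bind, on either strand. Sequences are RefSeq's, read 5′ to 3′ on the gene's strand from the 300 bases before its annotated start in build TAIR10.1.
IAA2 (chr3:8182096-8182395, minus strand): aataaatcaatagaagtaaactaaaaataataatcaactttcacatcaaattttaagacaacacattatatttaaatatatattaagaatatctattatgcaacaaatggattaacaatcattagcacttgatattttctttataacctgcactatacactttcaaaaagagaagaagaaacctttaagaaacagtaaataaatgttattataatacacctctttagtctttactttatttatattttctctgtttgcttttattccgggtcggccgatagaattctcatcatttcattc
IAA5 (chr1:5366498-5366797, minus strand): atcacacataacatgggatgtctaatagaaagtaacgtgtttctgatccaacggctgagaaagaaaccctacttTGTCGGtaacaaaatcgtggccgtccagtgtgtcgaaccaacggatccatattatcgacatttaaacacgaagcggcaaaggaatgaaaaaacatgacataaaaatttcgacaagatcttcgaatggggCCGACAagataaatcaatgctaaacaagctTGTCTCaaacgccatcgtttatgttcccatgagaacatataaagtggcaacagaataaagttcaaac
IAA12 (chr1:1239994-1240293, plus strand): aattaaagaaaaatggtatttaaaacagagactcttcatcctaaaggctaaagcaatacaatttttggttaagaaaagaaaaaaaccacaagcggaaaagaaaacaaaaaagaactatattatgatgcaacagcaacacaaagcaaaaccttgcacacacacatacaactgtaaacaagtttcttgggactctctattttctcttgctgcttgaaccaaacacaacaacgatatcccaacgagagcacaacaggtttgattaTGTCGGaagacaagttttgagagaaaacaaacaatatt
IAA19 (chr3:5263701-5264000, plus strand): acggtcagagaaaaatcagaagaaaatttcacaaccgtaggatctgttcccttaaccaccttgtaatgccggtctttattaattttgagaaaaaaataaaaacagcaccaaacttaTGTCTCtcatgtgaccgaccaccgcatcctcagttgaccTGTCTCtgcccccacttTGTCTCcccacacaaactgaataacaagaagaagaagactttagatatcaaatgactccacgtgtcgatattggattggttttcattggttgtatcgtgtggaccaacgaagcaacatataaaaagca

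IAA2 held neither element in this window, IAA5 held 1 TGTCTC and 2 TGTCGG, IAA12 held 1 TGTCGG and IAA19 held 3 TGTCTC. Among all 10 genes, TGTCTC stood in 4 windows, against 13% of 27443 protein-coding gene windows of the same length. TGTCGG stood in 3 of 10, against 4.91%, and either element in 5 of 10, against 17.3%. Beside the genes shown, IAA1 held 1 of each and IAA3 held 1 TGTCTC. No element was found in the windows of IAA2, IAA14, IAA17, IAA28 or IAA29, which says only that these letters are not in those 300 bases. In the annotation IAA1 and IAA14 are neighbours on opposite strands of chromosome 4, 10732 bases apart, and IAA3 and IAA17 are neighbours on opposite strands of chromosome 1, 6388 bases apart.

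Libraries held 1376404 to 7512410 counted reads, with batch 1 the shallowest by its median (2155735, against 4657127 to 6446532 in the other batches). Levels are given as CPM, read counts scaled to a common library total after TMM scaling for depth and composition, and a 3′ tag count is compared between libraries and not between genes. The library with the lowest total, replicate 4 of 1 mM at 45 min, had a median correlation of 0.912 with its group mates, while the next lowest of the 36 was 0.943. Root hair, endodermis, xylem and root tip markers had reads throughout, and 4 shoot photosynthesis genes summed to 2.35 to 15.6 CPM per library. In whole roots, fewer cells of a type and less RNA per cell cannot be told apart. The depth behind the 10 genes is uneven: over 36 libraries IAA28 had 57609 reads, IAA17 48662, IAA2 10284, IAA3 9046, IAA12 7535, IAA14 2803, IAA19 2662, IAA1 842, IAA29 239 and IAA5 200. All 10 passed the filter on low counts. IAA5 had 0 reads in 3 libraries and IAA29 in 2, where 3 counts of the total allow up to 0.867 to 2.18 CPM.

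**Figure D1:**
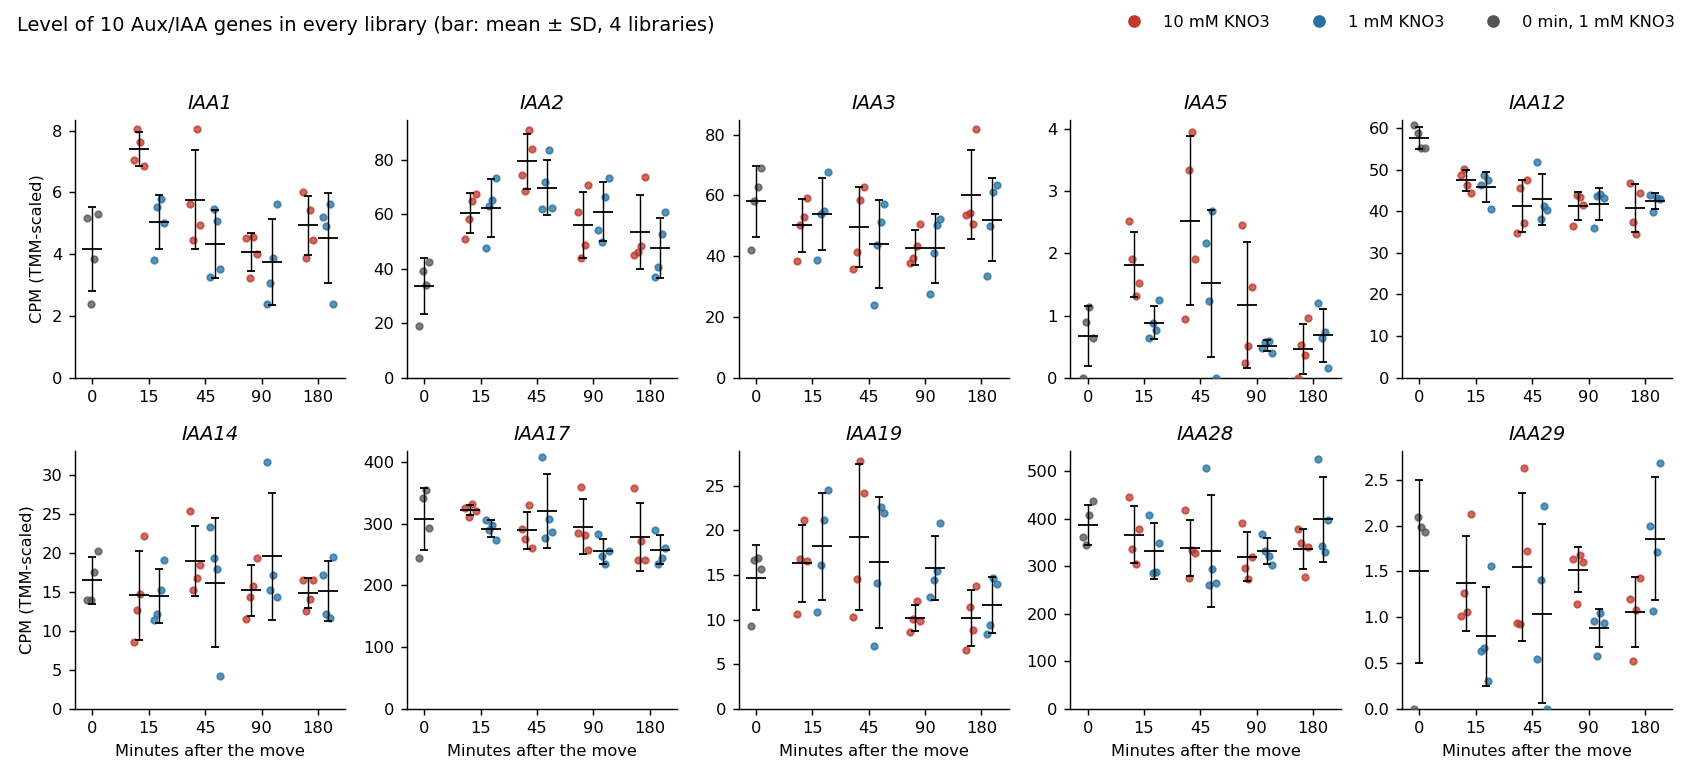
Level of each Aux/IAA gene in every library (points; vertical axis CPM on its own scale from 0, horizontal axis minutes after the move), with the group mean and SD in black; 10 mM is red, 1 mM blue and 0 min grey. IAA12 lay at 34.5 to 51.9 CPM in the 32 libraries after the move and at 55.2 to 60.6 CPM in the 4 at 0 min, and IAA2 shows the opposite shift, highest at 45 min. All 32 are set against the same 4 libraries, and how many of all genes separate so was not counted.

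The KNO3 level after the move did not separate any of these repressor genes beyond the threshold. The comparison of 10 mM with 1 mM at the same time asks what the higher supply added after the same handling. Of the 10 genes, 0 were called at 15, 45, 90 or 180 min by edgeR's quasi-likelihood test (Benjamini-Hochberg adjusted p under 0.05), and 0% of 18768 genes were called at each time. Unadjusted p under 0.05 was reached by 0, 0, 1 and 0 of the 10 genes at the 4 times in order, beside 2.59%, 4.88%, 4.65% and 1.97% of all genes. DESeq2 called 0 of the 10 genes and 0 of 25303 genes at each time, at 0% of genes. An edgeR fit that takes batch as a blocking factor, below the blocked fit, also called 0 of the 10 at each time, beside 0.0107%, 0%, 0.048% and 0% of all genes. The joint test over the 4 times and the test that the difference changes between times called 0 of 10 genes and 0% of all genes by edgeR. DESeq2 called 0 of the 10 there (0.00395% and 0% of genes) and the blocked fit 0 of the 10 (0.0853% and 0%). Unadjusted p was under 0.05 for 0 of the 10, beside 2.78% and 2.16% of all genes.

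IAA19, an early auxin-induced gene known from hypocotyl tropisms (MASSUGU 2), was the gene with the unadjusted p under 0.05. At 90 min it stood at 8.62, 10.1, 12.1 and 9.85 CPM in 10 mM, against 12.5, 14.4, 15.4 and 20.8 CPM in 1 mM (replicates 1 to 4). The groups did not overlap, and 10 mM was lower in 4 of 4 batches. How many of all genes separate in this way was not counted, here or for the genes below. The log2 fold change was -0.64 ± 0.28 (SE; 95% interval -1.21 to -0.08). It failed the correction, with an edgeR adjusted p of 0.999 (0.185 in the blocked fit; 0.0269 before adjustment). At 15, 45 and 180 min its estimates were -0.20, 0.25 and -0.19.

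IAA1 (AUXIN RESISTANT 5) stood higher in 10 mM at 15 min without passing the test. It had 7.05, 8.06, 7.65 and 6.85 CPM in 10 mM, against 3.82, 5.53, 5.79 and 5 CPM in 1 mM, again with no overlap. The log2 fold change was 0.50 ± 0.26 (95% interval -0.03 to 1.04; edgeR adjusted p = 1), and at the later times it was 0.33, 0.02 and 0.16. IAA5 likewise had 29 reads in 10 mM and 18 reads in 1 mM at 15 min, and its 4 libraries there lay above those of 1 mM. Its estimate was 0.87 ± 0.57 with an interval of -0.28 to 2.02. IAA17 at 15 min had no overlap either, and 10 mM was higher in 4 of 4 batches. Its difference was small, 322 ± 8.72 CPM in 10 mM against 292 ± 13.5 CPM in 1 mM (0.14 ± 0.13). None of these differences at 15 min was called, and how many of all genes separate in this way was not counted.

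The width of the 95% intervals differed widely over the family. For IAA12 the 4 intervals together spanned -0.31 to 0.30 on the log2 scale, for IAA17 -0.41 to 0.49, for IAA2 -0.51 to 0.56 and for IAA28 -0.59 to 0.50. IAA3 spanned -0.56 to 0.64 and IAA14, the SOLITARY-ROOT repressor, -0.78 to 0.66. IAA1 spanned -0.55 to 1.04 and IAA19 -1.21 to 0.81. Those of the genes with the fewest reads were wider, -1.66 to 2.30 for IAA5 and -1.82 to 1.91 for IAA29. At this depth a 2-fold difference was thus inside an interval of IAA1, IAA5, IAA19 and IAA29. The median estimate over the 10 genes was 0.09, 0.18, -0.02 and -0.04 at the 4 times, beside 0.00, -0.01, 0.00 and -0.00 over all genes.

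**Figure D2:**
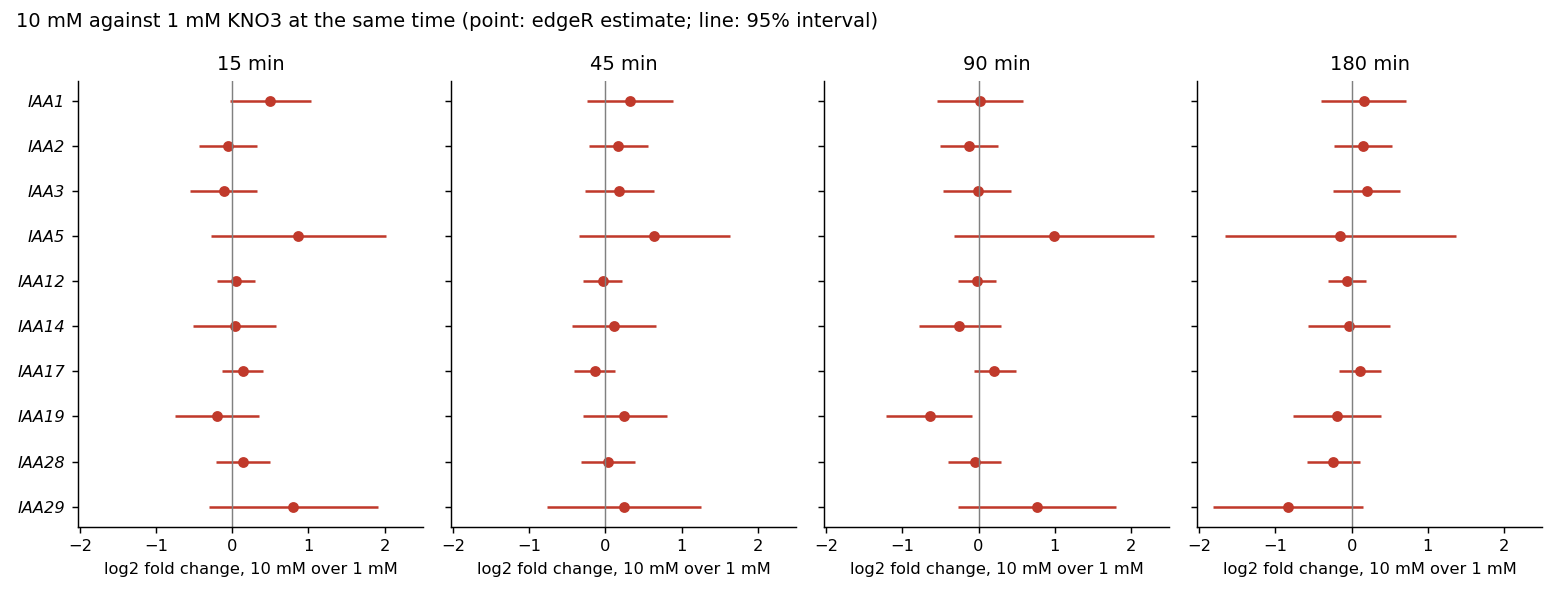
log2 fold change of 10 mM over 1 mM KNO3 at each time (horizontal axis; points are edgeR estimates, lines 95% intervals, 4 libraries per group), 1 row per Aux/IAA gene. Of the 40 intervals, that of IAA19 at 90 min (-1.21 to -0.08) leaves out 0, and the intervals of IAA5 and IAA29 are the widest.

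Against 0 min, IAA2 rose and IAA12 fell after the move, on 10 mM as on 1 mM plates. These comparisons ask what differed after transfer, and they also differ in fresh medium, handling and time of day. All 8 share the same 4 libraries at 0 min, so likeness between them is not independent. By edgeR, 1 of 10 genes was called in 10 mM at 15 min, where 5.16% of all genes were, 3 of 10 at 45 min (5.83%), 2 of 10 at 90 min (6.38%) and 2 of 10 at 180 min (6.85%). In 1 mM the counts were 1 of 10 at 15 min (6.92%), 2 of 10 at 45 min (6.99%), 2 of 10 at 90 min (7.14%) and 1 of 10 at 180 min (7.53%). The median estimate of the 10 genes ran from -0.19 to 0.05 in 10 mM and from -0.25 to 0.04 in 1 mM, beside -0.03 to 0.00 for all genes.

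IAA2, an early auxin-response gene whose promoter serves as an auxin reporter, rose within 15 min and was highest at 45 min. In 10 mM at 45 min it had 74.2, 68.4, 90.9 and 83.8 CPM, and in 1 mM at 45 min 61.7, 71.8, 83.4 and 62.1 CPM, against 19.1, 39.1, 33.8 and 42.4 CPM at 0 min. Neither group overlapped with 0 min, where replicate 1 was the lowest. The log2 fold change at 45 min was 1.21 ± 0.19 in 10 mM (edgeR adjusted p = 2.27e-05) and 1.03 ± 0.20 in 1 mM (adjusted p = 0.000298). Both calls held when any 1 library or batch was left out.

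At 15 min IAA2 averaged 60.4 ± 7.48 CPM in 10 mM and 62.2 ± 10.7 CPM in 1 mM, against 33.6 ± 10.3 CPM at 0 min (SD, n = 4 each). It rose by 0.82 ± 0.19 in 10 mM (edgeR adjusted p = 0.00466; 0.0953 without batch 3) and by 0.87 ± 0.19 in 1 mM (adjusted p = 0.00165). At 90 min it averaged 55.9 ± 12.1 CPM in 10 mM and 60.9 ± 10.8 CPM in 1 mM. It thus stayed above 0 min, by 0.70 ± 0.19 in 10 mM (adjusted p = 0.0188) and by 0.83 ± 0.19 in 1 mM (adjusted p = 0.00332; 0.0727 without batch 3). The 10 mM call was lost on leaving out replicate 1 (adjusted p = 0.0878) or replicate 3 (0.0505) at 0 min, without replicate 4 of 10 mM at 90 min (0.129) and without batch 1 or 3 (0.119 and 0.1).

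At 180 min IAA2 had 45, 46.1, 48.4 and 73.5 CPM in 10 mM and 36.8, 40.6, 52.7 and 60.8 CPM in 1 mM. It rose by 0.63 ± 0.19 in 10 mM (edgeR adjusted p = 0.0363), a call that 1 library could end. It was lost with only the groups compared in the fit (0.0621). Its adjusted p was 0.269 without replicate 4 of 10 mM at 180 min and 0.162 or 0.0908 when replicate 1 or 3 at 0 min was dropped. It was 0.092, 0.0696, 0.168 and 0.125 without batches 1 to 4. In 1 mM the estimate of 0.48 ± 0.20 missed the threshold (adjusted p = 0.149) and passed it in the blocked fit (0.0171), where 2 of the 10 genes and 12.2% of all genes were called. Within batches IAA2 was above 0 min in 4 of 4 at every time and KNO3 level, and 30 of the 32 libraries after the move exceeded the highest at 0 min. The number of all genes that separate as far was not counted.

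The order of IAA2 group means ran from 45 min in 10 mM and in 1 mM (79.3 and 69.7 CPM), over 1 mM at 15 and 90 min (62.2 and 60.9), 10 mM at 15, 90 and 180 min (60.4, 55.9 and 53.3) and 1 mM at 180 min (47.7), to 0 min (33.6). Each mean down to 1 mM at 180 min lay within 1 SD of its neighbour in that order. Times after the move were not tested against each other, so this order only describes group means.

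IAA12 (BODENLOS), the partner of ARF5 in embryonic root formation, fell after the move. In 10 mM it had 34.8, 45.6, 37.1 and 47.5 CPM at 45 min and 36.5, 43.8, 43.3 and 41.6 CPM at 90 min, against 60.6, 58.8, 55.3 and 55.2 CPM at 0 min. In 1 mM it had 51.9, 38.2, 41.3 and 40.2 CPM at 45 min and 36, 43.6, 44.1 and 43.2 CPM at 90 min. All 32 libraries after the move lay below all 4 at 0 min. All 32 are set against the same 4 libraries, and how many of all genes separate so was not counted. At 180 min it averaged 40.8 ± 5.76 CPM in 10 mM and 42.5 ± 1.88 CPM in 1 mM, against 57.5 ± 2.65 CPM at 0 min.

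In 10 mM the log2 fold changes of IAA12 were -0.46 ± 0.12 at 45 min, -0.46 ± 0.12 at 90 min and -0.49 ± 0.12 at 180 min (edgeR adjusted p = 0.0129, 0.0114 and 0.00605). In 1 mM they were -0.43 ± 0.12, -0.45 ± 0.12 and -0.43 ± 0.12 (adjusted p = 0.0258, 0.0147 and 0.0184). At 15 min the estimates were -0.28 in 10 mM (adjusted p = 0.306) and -0.33 in 1 mM (adjusted p = 0.122), short of a call, with 4 of 4 batches lower in each. The group means at 15 min, 47.4 and 45.8 CPM, stood between 0 min and the later times. From 45 min on the means (40.8 to 42.9 CPM) differed by less than the SD of each of these groups but 1 mM at 180 min.

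The calls of IAA12 were small steps above the threshold and several rested on few libraries. In 10 mM at 45 min the adjusted p was 0.0697 and 0.0767 without replicate 1 or 3 of that group, and at 90 min it was 0.0531 without replicate 1 of that group. The call in 1 mM at 45 min was lost without any 1 of replicates 2, 3 and 4 of that group (0.118, 0.071 and 0.0624) or any 1 of replicates 1 to 4 at 0 min (0.067, 0.0604, 0.0512 and 0.051). At 90 min in 1 mM it was 0.0654 without replicate 1 of that group. At 180 min in 1 mM it was 0.0707 without replicate 2 of that group and 0.0515 without replicate 1 at 0 min. Log2 fold changes without 1 of these libraries ran from -0.44 to -0.36. Each of the 6 calls was also lost without at least 2 of the 4 batches (adjusted p up to 0.227). With only the groups compared in the fit, the calls in 10 mM at 45 and 90 min and in 1 mM at 45 min were lost (0.0699, 0.0529 and 0.211), and with no filter on low counts that in 1 mM at 45 min (0.0661).

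Root tip markers moved with some of these groups. The 3 markers (PLT1, PLT2 and PLT3) summed to 34.5 to 58.5 CPM in 1 mM at 45 min, against 17.3 to 29.5 CPM at 0 min, and 2 of the 3 rose. At 180 min in 1 mM the sum was 31.2 to 45.6 CPM, with 1 of 3 higher by the test. In 10 mM at 45 min and in 1 mM at 90 min, where IAA2 and IAA12 were called as well, the sums were 25.6 to 31.5 CPM and 27.1 to 33.5 CPM. There all 3 estimates were above 0, with medians of 0.47 and 0.51. Neither edgeR, DESeq2 nor the blocked fit called any of the 3 in those groups, and 0 and 2 of 3 had an unadjusted p under 0.05. In 10 mM at 90 and 180 min IAA2 and IAA12 were called too. The sums there were 22.2 to 30 CPM and 26.1 to 29.3 CPM, with median estimates of 0.21 and 0.28. At 15 min IAA2 was called at both KNO3 levels, and the root tip medians were -0.14 in 10 mM and 0.19 in 1 mM. Neither edgeR nor the blocked fit called a root tip marker in 10 mM at 90 and 180 min or at 15 min. Of the 3 root hair markers, edgeR called COBL9 lower in 10 mM at 45 min and in 1 mM at 90 min, where the 3 summed to 113 to 141 CPM and 106 to 146 CPM, against 139 to 174 CPM at 0 min. At 90 min 1 of the 3 estimates was above 0 in 1 mM and 1 in 10 mM (medians -0.19 and -0.23). In 10 mM at 45 min 0 of the 3 were (median -0.27). The lowest sum stood in 1 mM at 45 min (74.8 to 135 CPM, median estimate -0.50), where edgeR called 0 of 3, 2 of 3 had an unadjusted p under 0.05, and DESeq2 and the blocked fit called COBL9. Over the 8 comparisons DESeq2 and the blocked fit each called 5 of 24 root hair tests, against 2 by edgeR. Beside these stood 4.7% to 7.51% of all genes by DESeq2, 7.13% to 12.2% in the blocked fit and 5.16% to 7.53% by edgeR. The part of either list in the Aux/IAA values was not tested.

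**Figure D3:**
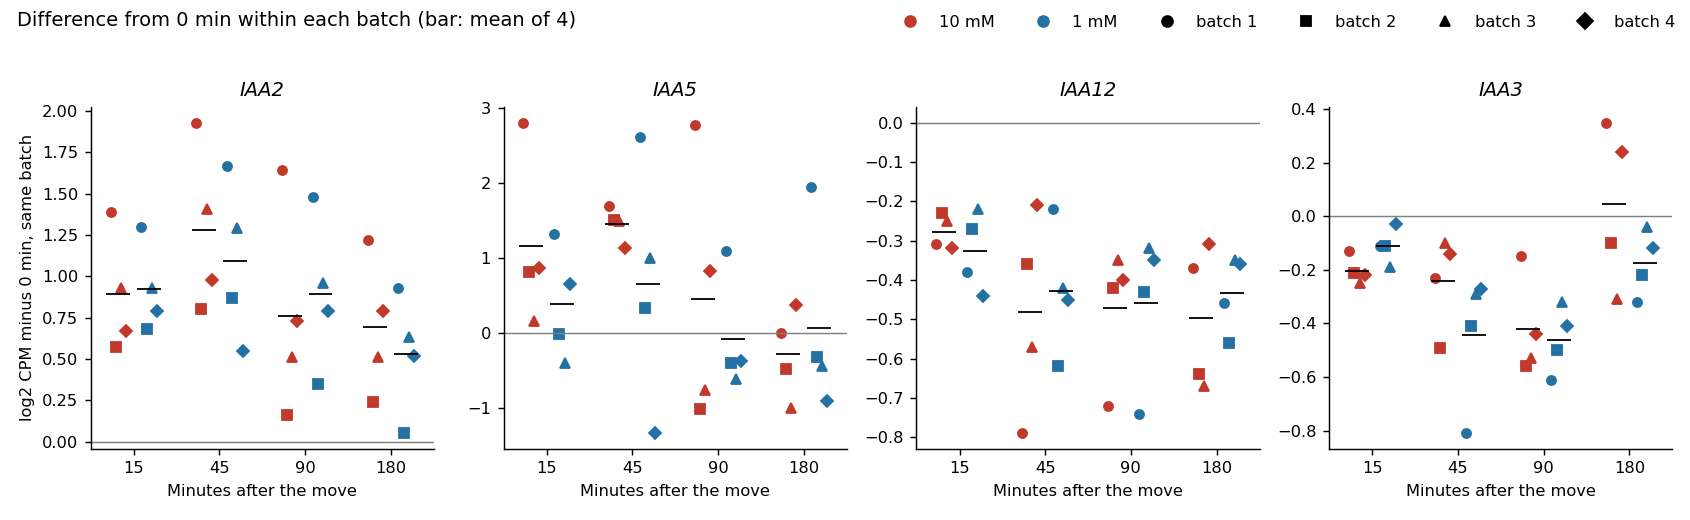
log2 CPM after the move minus log2 CPM at 0 min of the same batch (vertical axis), for IAA2, IAA5, IAA12 and IAA3 by minutes after the move; symbols are the 4 batches, red is 10 mM, blue is 1 mM, and bars are means of 4. IAA2 is above 0 and IAA12 below 0 in 4 of 4 batches at every time and KNO3 level, while IAA5 is above 0 in 4 of 4 batches in 10 mM at 15 and 45 min and on both sides of 0 elsewhere. All differences of a batch share its 1 library at 0 min, and how many of all genes behave so was not counted.

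IAA5, an early auxin-induced gene with 3 response elements in its window, was called in 10 mM at 45 min alone among the 8 comparisons with 0 min. Its libraries there had 2, 18, 27 and 10 reads (0.94, 3.34, 3.95 and 1.91 CPM), against 0, 3, 8 and 4 reads at 0 min (0, 0.895, 1.14 and 0.642 CPM). All 4 batches were higher, though replicate 1 of 10 mM lay among the 0 min values. The log2 fold change was 1.77 ± 0.54 (95% interval 0.69 to 2.86; edgeR adjusted p = 0.038).

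That call of IAA5 was fragile. The adjusted p was 0.0723 by DESeq2, which called 2 of the 10 genes and 5.78% of all genes there, and 0.0544 with no filter on low counts (2 of 10 and 4.08%). It was 0.101 and 0.211 without replicate 2 or 3 of 10 mM at 45 min, and 0.0896, 0.0729 and 0.132 without replicate 1, 2 or 4 at 0 min. Without batches 2, 3 and 4 in turn it was 0.237, 0.287 and 0.0926. IAA5 in 1 mM at 45 min had 28 reads and an estimate of 1.13 ± 0.59 (adjusted p = 0.306), and the 10 mM against 1 mM difference at that time, 0.64 ± 0.49, was not called (adjusted p = 0.97). In the annotation IAA5 overlaps CYCA2;3 (AT1G15570), a cyclin gene, on the opposite strand, and whether the counting used strand is not given in the sources used here. CYCA2;3 was at 0.19 ± 0.24 in 10 mM at 45 min (adjusted p = 0.855).

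IAA1 had its highest group mean in 10 mM at 15 min, at 7.40 ± 0.559 CPM, against 4.17 ± 1.36 CPM at 0 min. Its 4 libraries there (6.85 to 8.06 CPM) lay above those at 0 min (2.39 to 5.29 CPM). The log2 fold change of 0.83 ± 0.27 missed the threshold (edgeR adjusted p = 0.0739). The blocked fit called it (0.0444), and there 2 of the 10 genes were called beside 7.13% of all genes. It was also called without batch 4 (1.06, adjusted p = 0.0482). Its estimate in 1 mM at 15 min was 0.32 ± 0.28.

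IAA3 (SHORT HYPOCOTYL 2) was lower than at 0 min in 4 of 4 batches at 45 and 90 min, with batches that stood apart, and the test without a block did not call it. At 90 min it had 37.8, 39.4, 43.3 and 50.7 CPM in 10 mM and 27.4, 40.9, 50.1 and 52.1 CPM in 1 mM, against 41.9, 58.2, 62.8 and 69.1 CPM at 0 min. In each of these groups batch 1 was lowest and batch 4 highest. The estimate was -0.45 ± 0.22 in 10 mM (edgeR adjusted p = 0.303; 0.00996 in the blocked fit, which called 3 of the 10 genes and 10.7% of all genes). For 1 mM it was -0.43 ± 0.22 (0.302; 0.00936 in the blocked fit, 3 of 10 and 11.8%). The value for 1 mM at 45 min was -0.41 ± 0.22 (0.331; 0.0293 in the blocked fit, 3 of 10 and 11.7%). At 180 min IAA3 stood at 60.2 ± 14.6 CPM in 10 mM, against 58 ± 11.6 CPM at 0 min. In the annotation IAA3 overlaps AT1G04230 on the opposite strand.

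IAA17, IAA28, IAA14, IAA19 and IAA29 were not called against 0 min at any time by edgeR, by DESeq2 or in the blocked fit. Of their 40 tests, 1 (IAA17 in 1 mM at 90 min) had an unadjusted p under 0.05, beside 17.4% of all genes in that comparison and 11.8% to 18.6% over the 8. IAA17 (AUXIN RESISTANT 3) and IAA28 had the most reads and narrow ranges of group means, 255 to 322 CPM for IAA17 and 320 to 398 CPM for IAA28. In several comparisons their batch 1 differed from the others in direction. IAA17 in 1 mM at 90 min had 283, 247, 234 and 255 CPM, against 244, 341, 354 and 293 CPM at 0 min, so batch 1 alone was higher. Its estimate of -0.28 ± 0.13 was not called (edgeR adjusted p = 0.27), and without batch 1 it was -0.42 and called (0.0259). The same held in 1 mM at 180 min (-0.26 ± 0.13, adjusted p = 0.31; -0.42 and 0.0291 without batch 1) and in 10 mM at 180 min (-0.15 ± 0.13, 0.681; -0.39 and 0.0459).

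IAA28, which acts in the steps that set up lateral root founder cells, had 507, 260, 293 and 264 CPM in 1 mM at 45 min, against 361, 344, 407 and 436 CPM at 0 min. Its estimate was -0.23 ± 0.17 (edgeR adjusted p = 0.537), and without batch 1 it was -0.54 (0.00721). At 90 min in 10 mM it was -0.28 ± 0.17 (0.485), and -0.41 without batch 1 (0.0482). Without that batch the lower level of IAA28 thus passed the test in these groups, and with it none did.

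IAA14 stayed near its 0 min level, with group means of 14.5 to 19.6 CPM, against 16.5 ± 3.03 CPM at 0 min, and estimates of -0.18 to 0.14. IAA19 had its highest group mean in 10 mM at 45 min (19.2 ± 8.17 CPM) and its lowest in 10 mM at 90 and 180 min (10.2 ± 1.46 and 10.2 ± 3.13 CPM), against 14.7 ± 3.6 CPM at 0 min. Its estimates in 10 mM at 90 and 180 min, -0.55 ± 0.28 and -0.54 ± 0.28, were not called (edgeR adjusted p = 0.341 and 0.348), with 4 of 4 batches lower in each. IAA29, known as a light- and temperature-responsive gene of the shoot, had 16 to 35 reads per group, and its estimates against 0 min ran from -1.02 to 0.15 with SEs of 0.46 to 0.53.

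Elsewhere in the pathway few genes passed the test. Of the other Aux/IAA genes 16 of 19 were tested, and IAA18 (AT1G51950) was the one that recurred. It rose in 10 mM at 45 and 90 min (40 ± 8.30 and 37.1 ± 2.65 CPM, against 24.1 ± 4.25 CPM at 0 min), by 0.71 ± 0.16 and 0.59 ± 0.16 (edgeR adjusted p = 0.00231 and 0.0139). In 1 mM it rose at 15, 45 and 90 min, by 0.59 ± 0.16, 0.84 ± 0.16 and 0.52 ± 0.16 (adjusted p = 0.0126, 0.000309 and 0.0366). Both calls at 45 min held without any 1 library or batch. The others did not, and each was lost without at least 1 batch. Without replicate 1 at 0 min the adjusted p was 0.0576 in 10 mM at 90 min, 0.0621 in 1 mM at 15 min and 0.124 in 1 mM at 90 min. It was 0.0652 in 1 mM at 15 min without replicate 4 of that group. For 1 mM at 90 min it was 0.104 without replicate 2 at 0 min and 0.063, 0.0589 and 0.0878 without replicates 1, 2 and 3 of that group.

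IAA27 (AT4G29080) rose in 1 mM at 180 min, to 208 ± 47.4 CPM against 149 ± 21.7 CPM at 0 min (0.48 ± 0.15, edgeR adjusted p = 0.0369), a call lost on leaving out replicate 1 of that group (0.255), or replicate 3 (0.109) or 4 (0.148) at 0 min. It was also lost without each of the 4 batches (0.0754 to 0.172) and with only the groups compared in the fit (0.0931). Counts called among those 16 genes were thus 0, 1, 1 and 0 in 10 mM at the 4 times and 1, 1, 1 and 1 in 1 mM, beside the shares of all genes given for these comparisons. In the blocked fit they were 1, 2, 3 and 1 in 10 mM, beside 7.13%, 9.23%, 10.7% and 10.8% of all genes. In 1 mM they were 1, 1, 4 and 1, beside 9.63%, 11.7%, 11.8% and 12.2%. All of these were higher than at 0 min.

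Among the 6 TIR1/AFB receptors, AFB2 fell in 1 mM at 15 min (47.4 ± 6.15 CPM, against 66.4 ± 11.3 CPM at 0 min; -0.49 ± 0.15, edgeR adjusted p = 0.0322). That call ended with no filter on low counts (0.0505), with only the groups compared in the fit (0.0829), without each of the 4 batches (0.0687 to 0.213) and when 0 min lacked any 1 of replicates 1, 2 and 3 (0.142, 0.0543 and 0.122) or 1 mM at 15 min lacked replicate 3 (0.0576) or 4 (0.203). In 10 mM at 15 min AFB2 was at -0.47 ± 0.15 (0.0515; 0.0101 in the blocked fit and 0.0411 by DESeq2). AFB5 in 10 mM at 90 min was at -0.51 ± 0.16 (0.0516; 0.0141 in the blocked fit and 0.0451 by DESeq2), with 24.8 ± 3 CPM, against 35 ± 4.82 CPM at 0 min. Over the 8 comparisons DESeq2 and the blocked fit thus each called 3 of 48 receptor tests, against 1 by edgeR. Of all genes, DESeq2 called 4.7% to 7.51% in these comparisons, the blocked fit 7.13% to 12.2% and edgeR 5.16% to 7.53%. Of the 9 tested auxin response targets of 10, GH3.1, which encodes an auxin-conjugating enzyme, rose in 1 mM at 15 min (6.52 ± 1.33 CPM, against 3.37 ± 1.75 CPM at 0 min; 1.15 ± 0.33, 0.0202). It lost that call with replicate 3 (0.144) or 4 (0.172) at 0 min left out, or replicate 2 (0.0865) or 4 (0.0561) of that group. It was also lost without batch 3 or 4 (0.269 and 0.334) and with only the groups compared in the fit (0.0503). In 1 mM at 15 min the blocked fit called 2 of the 9 targets, 1 higher and 1 lower, beside 9.63% of all genes. Of the 9 estimates 6 were above 0 there and 2 in 10 mM at 15 min (medians 0.27 and -0.13). In 10 mM against 1 mM at 15 min 2 of the 9 were above 0, with a median of -0.47 and 0 called.

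GH3.2, of the same enzyme family, rose at 45 min in 10 mM (5.85 ± 0.685 CPM) and in 1 mM (5.17 ± 3.49 CPM), against 2.63 ± 0.663 CPM at 0 min. The log2 fold changes were 1.21 ± 0.34 and 1.16 ± 0.35 (edgeR adjusted p = 0.0223 and 0.0354). In 10 mM it lost the call when 0 min lacked any 1 of replicates 2, 3 and 4 (0.0569, 0.0853 and 0.0819), or that group lacked replicate 3 (0.0771). In 1 mM the same replicates at 0 min ended it (0.0747, 0.11 and 0.11), as did replicate 1 or 2 of that group (0.0909 and 0.275) and a fit of only the groups compared (0.232). Each of the 2 calls was lost without 3 of the 4 batches (0.0573 to 0.312 in 10 mM and 0.0829 to 0.373 in 1 mM). LBD16, a transcription factor of lateral root initiation, stood at 9.03 ± 2.12 CPM in 10 mM and 12 ± 3.02 CPM in 1 mM at 45 min, against 5.89 ± 1.28 CPM at 0 min. It was called in 1 mM there (0.99 ± 0.28, adjusted p = 0.0242), though not with replicate 3 or 4 at 0 min left out (0.0939 and 0.087), nor with replicate 2 or 4 of that group left out (0.0535 and 0.0702), without batch 1, 3 or 4 (0.0509, 0.0695 and 0.217) or with only the groups compared (0.0541). Of the 5 TPL corepressors and 5 activating ARFs, 0 were called in the 8 comparisons with 0 min by edgeR, by DESeq2 or in the blocked fit, with 0 of 40 corepressor tests and 3 of 40 ARF tests at an unadjusted p under 0.05 (11.8% to 18.6% of all genes). In 10 mM against 1 mM over the 4 times the same 3 fits called 0 genes of any of the 5 lists. Unadjusted p under 0.05 was reached there in 1 of 64 tests of other Aux/IAA genes, 3 of 24 of receptors, 1 of 36 of targets and 0 of 20 each of corepressors and ARFs.

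The 10 genes did not move as 1 block across the 36 libraries. Over the 45 pairs, Pearson's r of log2 CPM ran from -0.488 for IAA2 and IAA12 to 0.574 for IAA3 and IAA19, as a description of libraries that share batches and depth. IAA3 was most like UBC29, a ubiquitin-conjugating enzyme gene (r = 0.87), and IAA2 most like MC7, a metacaspase gene (r = 0.837). IAA19 was most like AT1G54540 (0.83), IAA28 most like AT4G13860 (0.806), IAA17 most like NIG (0.78) and IAA14 most like the methylesterase gene MES1 (0.763). For IAA29, IAA12, IAA5 and IAA1 the nearest genes were AT4G32440, AT5G44920, AT4G12000 and AT1G03370 (0.746, 0.727, 0.708 and 0.695).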

How the data were processed

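Root poly-A RNA was captured on beads and turned into 3′ digital expression libraries (BrAD-seq, per the labels' protocols). What the authors deposited is a table of raw, unscaled read counts by gene for every library. Per the submitters' processing notes, FastQC, Bowtie2, SAMtools and HTSeq were used with build TAIR10, and no version, setting, annotation or strand option is given there. Tables held 0 summary lines. Of 32833 identifiers 32548 matched RefSeq's TAIR10.1 gene table, which gave names, promoter windows, overlaps and neighbours by locus identifier; the tables hold no coordinates.

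Counts were tested with edgeR 4.0.16 (R 4.3.3): TMM factors 0.889 to 1.05, filterByExpr, a two-sided quasi-likelihood test, 1 coefficient for each of 9 groups, 36 libraries, 18768 genes, Benjamini-Hochberg adjustment over all of them within each comparison, threshold 0.05. Each SE is the absolute log2 fold change divided by the root of F, so SEs and the 95% intervals are approximate. The biological coefficient of variation was 17%. CPM are counts over TMM-scaled totals; log2 CPM adds a prior count of 2. The edgeR steps were tried on simulated counts with the same spread for all genes and no batch effect. Changes were put only into genes with more reads than IAA5 or IAA29, so that trial does not cover such genes or the batches. Floors from 3 counts cover counting error only.

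Groups and batches are the labels'. The labels name a batch, so equal replicate numbers pair libraries: deviations from group means correlated best with the same number in 31 of 36 libraries (same-number pairs -0.0683 to 0.613, median 0.335). Whether batches were grown as separate cultures is not in the labels, so p-values reflect the spread of these samples alone, which may be technical. In a chi-square check no replicate pair within a group agreed within sampling noise. Alternatives were RLE scaling, no filter, a blocking factor for batch (the replicate block), DESeq2 1.42.0, fits of only the groups compared, and leaving out each library or batch.

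The 10 genes and the lists (other Aux/IAA, receptors, corepressors, ARFs, targets, cell markers) were chosen with earlier results of these data known. All 10 are named whatever their result. From each list up to 3 called genes per comparison with the largest change are named, and the most alike gene is the one with the highest Pearson r. CYCA2;3 and AT1G04230 are named for their overlap, markers for their sums.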

Additional observations from a re-analysis of the deposited data

Results flagged for a closer look

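Dixon's test was applied to each of the 10 genes in each of the 9 groups of 4 libraries, 90 sets in all, and marked 8 in which 1 library stood apart; chance marks about 1 in 20. Of the 8, 5 were libraries of batch 1, the batch with the lowest median depth. In 10 mM at 180 min replicate 4 was high for IAA2 (73.5 CPM, the others 45 to 48.4) and for IAA3 (81.9 CPM, the others 50.7 to 54.2). In 1 mM at 90 min replicate 1 was low for IAA12 (36 CPM, the others 43.2 to 44.1) and high for IAA14 (31.7 CPM, the others 14.4 to 17.2). In 1 mM at 45 min replicate 1 was high for IAA28 (507 CPM, the others 260 to 293). At 0 min replicate 1 was low for IAA19 (9.32 CPM, the others 15.7 to 16.9) and at 0 CPM for IAA29 (the others 1.93 to 2.09), where 3 counts of its total allow up to 1.6 CPM. In 10 mM at 90 min replicate 2 was low for IAA29 (1.15 CPM, the others 1.6 to 1.68).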

How the results depend on the processing

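The 0 counts for 10 mM against 1 mM stayed 0 under every alternative run. Against 0 min the number of the 10 genes called moved as follows, with the share of all genes called in the same fit in brackets. With the batch as a replicate block it was 2 in 10 mM at 15 min (7.13%), 3 at 90 min (10.7%), 3 in 1 mM at 45 min (11.7%), 3 at 90 min (11.8%) and 2 at 180 min (12.2%). The block changed the call of IAA1, IAA2 and IAA3 in these 5 cases and no other call of the 10 genes. With only the groups compared, where 8 or 9 of the 10 genes were tested, it was 1 in 10 mM at 45 min (5.59%), where IAA12 was lost and IAA5 was not tested, 1 at 90 min (5.95%), where IAA12 was lost, 1 at 180 min (7.3%), where IAA2 was lost, and 1 in 1 mM at 45 min (3.82%), where IAA12 was lost. With no filter on low counts it was 2 in 10 mM at 45 min (4.08%), without IAA5, and 1 in 1 mM at 45 min (4.88%), without IAA12. By DESeq2 it was 2 in 10 mM at 45 min (5.78%), without IAA5. Leaving out 1 library or batch moved calls over all genes as well. In 10 mM it gave 0 to 2 at 15 min (3.29% to 4.9% of all genes), 1 to 3 at 45 min (2.76% to 5.68%), 0 to 2 at 90 min (3.58% to 6.57%) and 0 to 2 at 180 min (3.78% to 6.26%). In 1 mM it gave 1 at 15 min (4.75% to 7.07%), 1 to 3 at 45 min (3.45% to 6.8%), 0 to 2 at 90 min (4.04% to 7.2%) and 0 to 2 at 180 min (3.96% to 7.11%). The cause of these moves was not tested. Of 140 single-gene results, RLE scaling moved 0 across the threshold, DESeq2 1, no filter 2 and the block 5. With only the groups compared 4 of 118 lost their call; the other results could not be had, because IAA5 or IAA29 missed the low-count filter there. No called value changed sign under any alternative. Depth limits IAA5 and IAA29 most, and replicate 4 of 1 mM at 45 min and batch 1 hold the fewest reads.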
